A study of Mus musculus with 13 samples.

Results

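Paneth cell products and Reg lectins were followed across the sorted cells of the mouse small intestine and of the hair bulge. The set holds 9 of the 17097 genes measured: the Paneth cell genes Mmp7, Itln1, Defa21 and Defa3, and the Reg genes Reg3g, Reg3b, Reg3a, Reg4 and Reg1. Genes were taken by the symbol of the platform annotation, and each is represented by the probe set that names only that gene and has the highest mean log2 value over all 13 arrays. Every one of the 9 was found on the array.

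The mice carried the Lgr5-EGFP-ires-CreERT2 allele on a C57BL/6 background, in all groups, so that GFP marks cells in which the Lgr5 promoter is active. From the small intestine there were 4 arrays of GFP_High cells (Lgr5 stem cells), 3 arrays of GFP_Low cells (their first descendants in the crypt) and 3 arrays of Villus epithelium (differentiated cells), and 3 further arrays held hair bulge cells, titled as GFPdim. Each sample was made from 3 mice, and ages were not given in the sources used here. RNA was hybridised to Affymetrix HT MG-430 PM arrays, and values are intensities on a linear scale. By the labels the GFP populations passed FACS, while the Villus samples are not labelled as sorted. The study's methods, however, state that RNA of all 4 groups was taken after FACS, and no gate is given for the Villus.

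Paneth cells sit at the crypt base between the Lgr5 stem cells and secrete granules of antimicrobial peptides, the enzymes that process them, and growth signals for their stem cell neighbours. Alpha-defensins are made as inactive precursors, which the metalloprotease Mmp7 (matrilysin) cleaves in the mouse. Reg proteins are small secreted C-type lectins. Reg3b and Reg3g bind bacteria and are made by enterocytes and Paneth cells, and microbes and the cytokine IL-22 are known to induce them.

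Several properties of the samples bear on the results. Sensory receptor genes (smell, pheromone and bitter taste) gave the background. Each of 86 such probe sets was averaged on the log2 scale over all 13 arrays. The 95th percentile of these means was an intensity of 7.55, called the receptor level here. The median of all probe sets on an array was 7.8 to 8.7, so a value just above the level is not clear signal. Some gut and skin cells, tuft cells among them, are known to use single genes of these families, so the level is an approximation. Lgr5 itself was 478.8, 539.7 and 687.1 on the hair bulge arrays and 12.6, 66.1 and 14.0 on the GFP_Low arrays, against 793.1, 576.5, 696.7 and 532.8 on the GFP_High arrays. Hair bulge overlapped GFP_High for this gene (adjusted p 0.775 by limma), and GFP_Low did not. A label field for the Lgr5 level names the opposite of the title for GFP_High 4, GFP_Low 2 and GFP_Low 3, and it names a high level for all hair bulge and Villus samples. Groups follow the titles and the source names. The study's methods, like the GFPdim titles, list the hair bulge arrays as Lgr5_Low. The label field names a high level, and their Lgr5 values overlapped GFP_High. Whether the hair bulge cells were of low or high GFP is therefore in doubt. The Villus 2 array stood apart. It held the pancreatic digestive enzyme genes Amy2a5 at 2779.4, against 4.1 on both other Villus arrays, and Cpb1 at 786.5, against 4.9 and 4.6. The summed intensity of 10 pancreatic acinar markers was 4960 on Villus 2, 192.1 and 173.3 on Villus 1 and 3, 90 to 119.5 on GFP_Low arrays and 120.7 to 139.8 on GFP_High arrays. Villus differences of the members and of the gene lists were therefore also computed without Villus 2. In pooled RNA, fewer cells of a type and less RNA per cell cannot be told apart.

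Of the Reg members, 4 lie in 1 cluster on chromosome 6 (GRCm38.p6). Their promoters are shown because these genes followed related but not equal courses, with that of Reg2 and without that of Reg3d. The order along the chromosome is Reg3b (chr6:78370885-78373466), Reg3d, Reg3a (chr6:78380709-78383839), Reg2, Reg1 (chr6:78425983-78428668) and Reg3g (chr6:78466269-78468874), 6 genes in 98 kb. Reg4 lies apart from them, at chr3:98222138-98236748. Mmp7 is at chr9:7692090-7699585 and Itln1 at chr1:171518123-171535325. Defa21 (chr8:21025545-21026517) and Defa3 (chr8:21287409-21288377) lie in the alpha-defensin cluster, whose genes are close copies of each other, so that a probe set named for 1 of them can also bind others.

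The RefSeq table held a promoter for 8 of the 9 members, Defa3 being the exception. Each line below gives the 100 bases directly before the annotated start, 5′ to 3′ on the strand of the gene. Capitals mark the run of 20 bases that Reg3b and Reg3g share, the longest run of 9 bases that Reg1 and Reg2 share, and, in Defa21, the letters ATCAAAG, which are CTTTGAT on the other strand.
Reg3b (chr6:78370785-78370884, plus strand): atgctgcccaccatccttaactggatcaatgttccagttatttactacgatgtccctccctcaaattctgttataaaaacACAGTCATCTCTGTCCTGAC
Reg3g (chr6:78468875-78468974, minus strand): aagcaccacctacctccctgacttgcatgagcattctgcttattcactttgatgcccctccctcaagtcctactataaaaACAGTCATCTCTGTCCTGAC
Reg3a (chr6:78380609-78380708, plus strand): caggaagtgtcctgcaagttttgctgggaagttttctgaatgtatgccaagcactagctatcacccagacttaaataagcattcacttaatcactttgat
Reg1 (chr6:78425883-78425982, plus strand): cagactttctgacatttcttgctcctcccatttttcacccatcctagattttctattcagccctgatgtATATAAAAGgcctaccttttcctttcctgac
Reg2 (chr6:78405055-78405154, plus strand): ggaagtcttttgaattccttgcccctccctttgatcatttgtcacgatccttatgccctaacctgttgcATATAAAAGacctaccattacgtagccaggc
Defa21 (chr8:21025445-21025544, plus strand): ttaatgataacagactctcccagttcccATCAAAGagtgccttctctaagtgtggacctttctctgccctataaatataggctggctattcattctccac

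Reg3b and Reg3g were identical at 76% of these 100 bases when aligned end to end, and their shared run of 20 bases ends at the start of both. The neighbouring Reg1 and Reg2 were identical at 71%, whereas Reg3a matched Reg3b at 59% and Reg3g at 61%. That is within the range of the other pairs of the cluster, 56% (Reg3b with Reg3d) to 65% (Reg3g with Reg2). The letters TATAAA were found, on either strand and within 250 bases before the start, in 5 of the 8 members (Mmp7, Defa21, Reg3g, Reg3b and Reg1), and in 12.4% of all 32851 windows of that length in the table. The similar promoters of Reg3b and Reg3g both count among these 5, so the matches are not independent. CTTTGAT, a motif bound by TCF and LEF factors, was found in 3 of the 8 (Defa21, Reg3g and Reg3a) and in 3.21% of all windows. The matches of Reg3g and Reg3a lie in a run of 10 bases that these related promoters share. TTTATG (CDX factors) was found in Itln1 and Reg3b and in 10.8% of all windows, and TTCNNNGAA (STAT factors) in Reg3b and in 7.02%. TTTATG read on the other strand is CATAAA, which shares its last 5 letters with TATAAA, and the other motifs share no such run. A match is a description of sequence, not a bound site.

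The 3 Paneth cell genes with signal were at their highest in GFP_Low cells and low in the Villus. Mmp7 was 121.0, 96.8, 96.0 and 96.2 on the GFP_High arrays, 1138.2, 720.2 and 1232.6 on the GFP_Low arrays, and 13.4, 17.6 and 14.8 on the Villus arrays. The 3 groups did not overlap. Itln1, a lectin that binds sugars of microbial surfaces, was 1254.7, 599.6, 1325.7 and 923.8 in GFP_High, 3835.0, 4895.7 and 7992.6 in GFP_Low, and 368.8, 256.9 and 248.3 in Villus. Here too the lowest GFP_Low array lay above the highest GFP_High array, and all Villus arrays lay below both crypt groups.

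Defa21, an alpha-defensin, was 176.7, 315.4, 402.4 and 308.4 in GFP_High and 1738.8, 2575.3 and 2944.6 in GFP_Low. On the Villus arrays it was 5.5, 7.3 and 5.5, all below the receptor level. Of these 3 genes Mmp7 and Itln1 kept a measurable Villus signal and Defa21 did not. Defa3, the second alpha-defensin, was 7.8, 5.6, 8.3 and 6.4 in GFP_High, 4.7, 6.7 and 4.6 in GFP_Low, and 5.4, 4.5 and 4.6 in Villus, so no group mean was above the receptor level and its differences are differences of background signal.

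The Reg members of the chromosome 6 cluster, Reg3g, Reg3b, Reg3a and Reg1, increased at each step instead. Reg3g was 381.4, 276.5, 115.3 and 167.0 in GFP_High, 839.9, 1570.6 and 527.5 in GFP_Low, and 3987.8, 5471.5 and 3204.4 in Villus. Reg3b was 1449.2, 2208.1, 584.4 and 527.5 in GFP_High, 2604.8, 4396.0 and 2411.5 in GFP_Low, and 6918.9, 7458.4 and 7414.8 in Villus. For both genes the order was Villus, GFP_Low, GFP_High from high to low and no arrays overlapped, although for Reg3b GFP_High 2 (2208.1) came close to the lowest GFP_Low array (2411.5). A second probe set of Reg3b gave the same order of group means but overlapped, with 1272.9, 4017.7 and 1096.6 in GFP_Low against 686.6, 1175.4, 220.2 and 225.2 in GFP_High.

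Reg3a, a close relative of both, was 5.1, 5.3, 5.0 and 5.4 in GFP_High, 32.0, 53.3 and 73.6 in GFP_Low, and 436.8, 444.1 and 503.6 in Villus. It was the only Reg member without signal above the receptor level on any GFP_High array. Reg1, first known as a secreted product of the pancreas, was 73.5, 332.1, 118.5 and 170.3 in GFP_High, 2123.0, 2627.5 and 2521.3 in GFP_Low, and 5999.0, 6710.9 and 7317.2 in Villus. Its GFP_High arrays spread from 73.5 to 332.1, wider in ratio than its other groups, and Villus 2 lay between the other Villus arrays.

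Reg4, which marks secretory and enteroendocrine cells of the mouse gut, did not follow the other Reg genes. It was 72.0, 113.3, 80.2 and 93.3 in GFP_High, 1715.4, 1661.8 and 1603.4 in GFP_Low, and 621.5, 542.1 and 475.2 in Villus. The Villus arrays lay between the crypt groups, above every GFP_High and below every GFP_Low array.

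**Figure D1:**
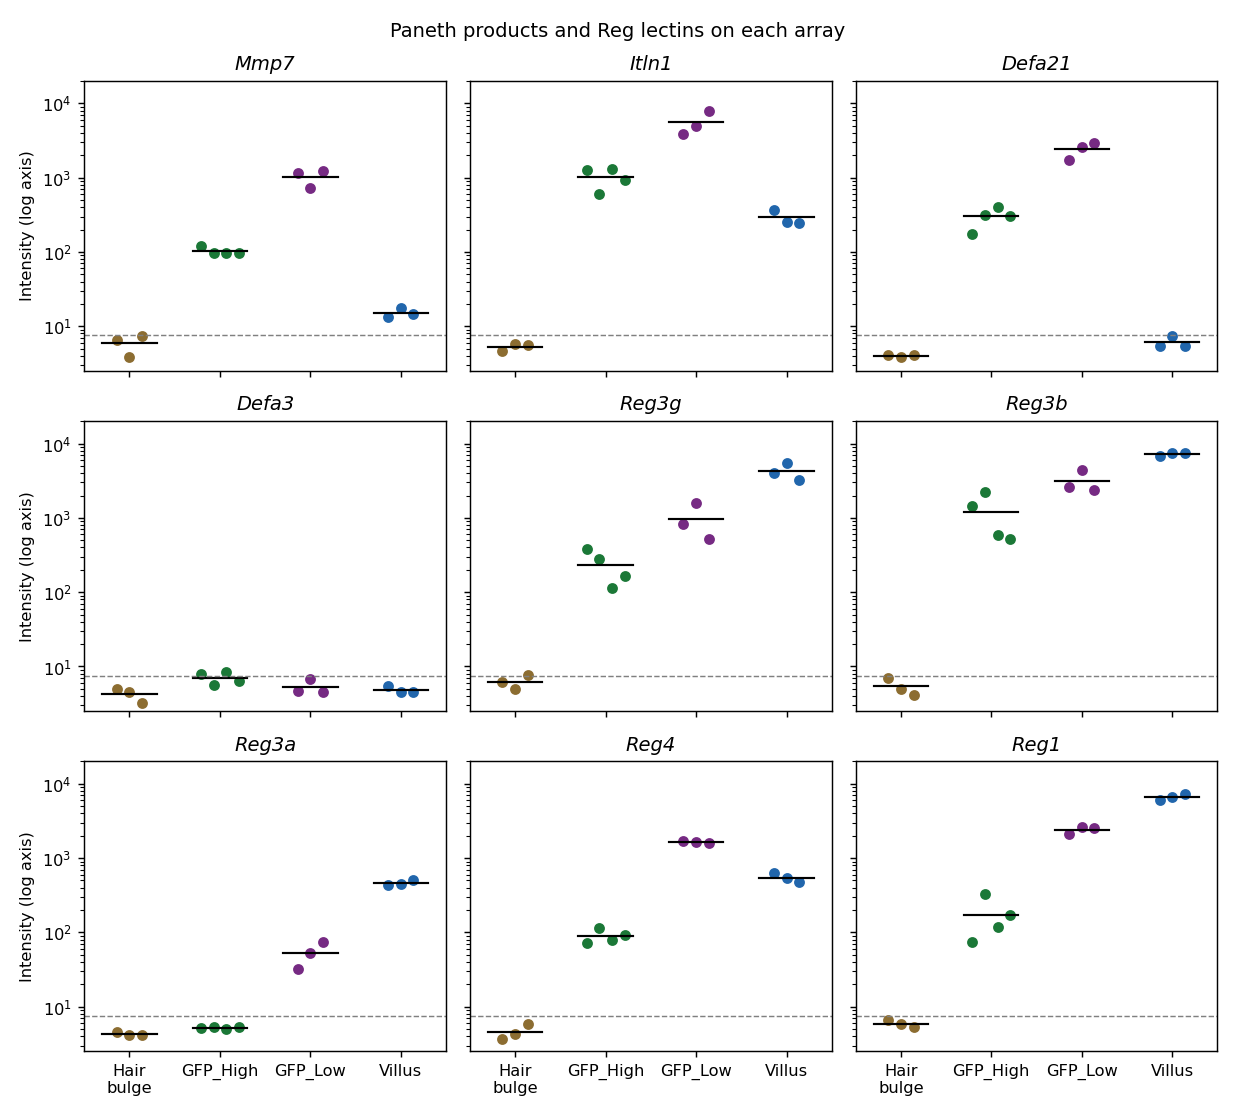
Intensity (log axis) of the 9 genes on each of the 13 arrays by group, with the mean of each group as a bar and the receptor level (7.55) as a dashed line. Mmp7, Itln1, Defa21 and Reg4 peak in GFP_Low, Reg3g, Reg3b, Reg3a and Reg1 peak in Villus, and Defa3 stays near the dashed line in all groups.

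The comparison of GFP_Low with GFP_High asks whether these genes differ where sorted crypt cells lose Lgr5. Of the 9 members 8 were called higher in GFP_Low (limma, Benjamini-Hochberg adjusted p under 0.05 over 17097 genes), whereas 6.32% of all genes were called higher. No member was called lower (0 of 9, and 0 at an unadjusted p under 0.05), against 10.4% of all genes. The median log2 difference was 3.03 over the members and -0.04 over all genes. Reg4 had the largest difference, with a log2 of 4.23 ± 0.18 (SE of the fit, here and below, n = 3 and 4 arrays), which is 18.8-fold (adjusted p 5.66e-09 by limma). Reg1 was 16.2-fold higher (log2 4.02 ± 0.35), Mmp7 9.84-fold (log2 3.30 ± 0.23), Defa21 8.19-fold (log2 3.03 ± 0.24) and Itln1 5.42-fold (log2 2.44 ± 0.28), with adjusted p of 5.01e-05 or below by limma.

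The Reg3 genes covered a wide range in the same comparison. Reg3a was at least 6.63-fold higher in GFP_Low, a bound set by the receptor level because its GFP_High signal lay below it (log2 of measured values 3.27 ± 0.20, adjusted p 1.44e-07 by limma). Reg3g was 4.17-fold higher (log2 2.06 ± 0.40, adjusted p 0.00285 by limma). Reg3b had the smallest difference of the 8, 3.03-fold (log2 1.60 ± 0.42, adjusted p 0.0172 by limma), and it was the only one lost on leaving out single arrays, with an adjusted p of 0.0514 without GFP_High 3 and 0.0691 without GFP_Low 2. Its second probe set had a log2 difference of 1.99 ± 0.56 (adjusted p 0.0313 by limma over 28898 probe sets). For Defa3 the log2 difference was -0.40 ± 0.19 (adjusted p 0.188 by limma), at background in both groups.

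Each of the 3 GFP_Low arrays shares a code in its title with a GFP_High array, and GFP_High 4 has a code of its own. The labels do not say what the code stands for, and it was taken to mark a sort (here A, B and C). Hair bulge 2 carries the code of sort B and was not paired with it, being of another tissue. Within each of these sorts all 8 members with signal were higher in GFP_Low. The size of the difference was steadiest for Reg4, Defa21 and Mmp7 and varied most for Reg1. Reg4 was 23.8-fold, 14.7-fold and 19.99-fold higher in sorts A, B and C, and Mmp7 was 9.41-fold, 7.44-fold and 12.8-fold higher. Reg1 was 28.9-fold, 7.91-fold and 21.3-fold higher, and in sort B it was GFP_High 2 that had the highest Reg1 signal of its group. Reg3b was 1.80-fold, 1.99-fold and 4.13-fold higher. In sort B both arrays had the highest Reg3b of their group, 4396.0 in GFP_Low 2 and 2208.1 in GFP_High 2.

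**Figure D2:**
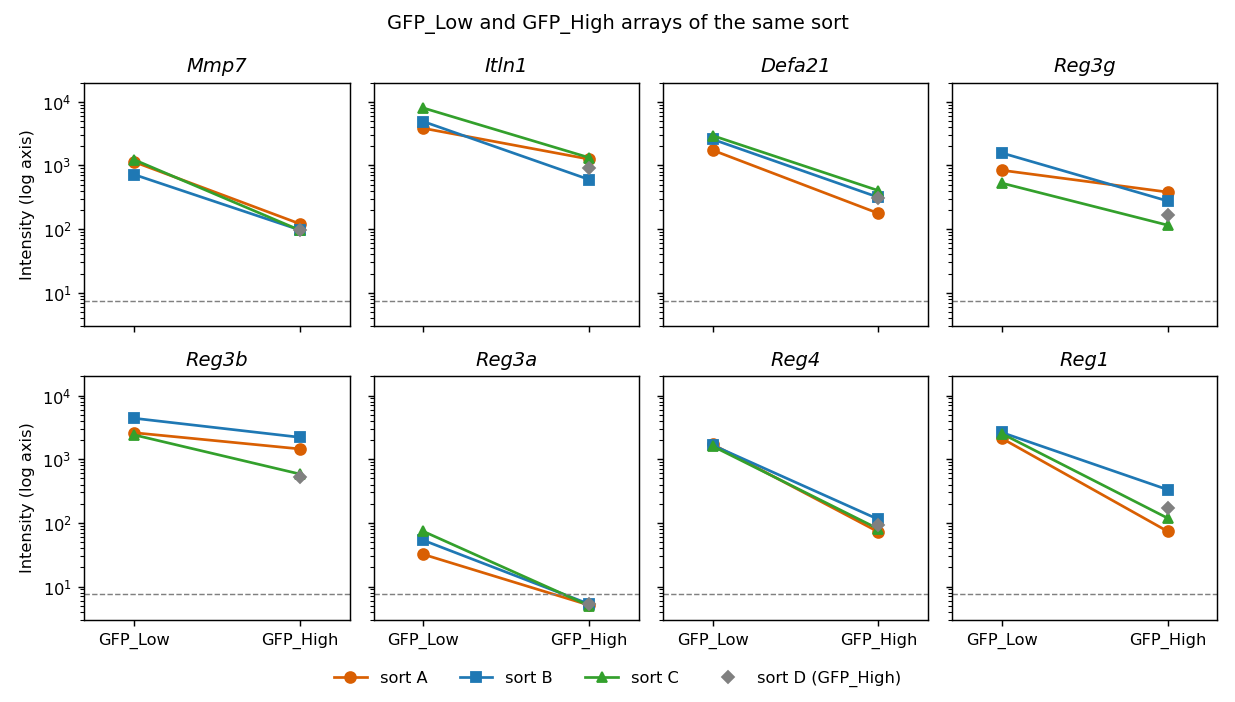
Intensity (log axis) of the 8 members with signal in GFP_Low and GFP_High cells, with a line joining the arrays of the same sort (A, B, C) and a diamond for GFP_High 4. Every line is higher at GFP_Low, with the least slope for Reg3b, at 1.80-fold in sort A.

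GFP_High 2 differed from the other GFP_High arrays in several of these values at once. It had the lowest Itln1 (599.6) and the highest Reg1, Reg4 and Reg3b, a summed intensity of 6 enterocyte markers of 2548 against 1462 to 2110 on the other GFP_High arrays, and Amy2a5 at 27.7 against 3.6 to 5.2. Whether these values have a part in its Reg signal was not tested. Without both sort B arrays the 8 members were still called higher in GFP_Low, and Defa3 was then called lower (log2 -0.68, adjusted p 0.0373 by limma) at background.

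The comparison of Villus with GFP_Low, differentiated epithelium against the first descendants, split the members evenly. Reg3a, Reg3g, Reg1 and Reg3b were called higher in Villus (4 of 9, with 20.8% of all genes called higher), and Defa21, Mmp7, Itln1 and Reg4 were called lower (4 of 9, with 21.3% of all genes called lower). Among the higher genes Reg3a led with 9.20-fold (log2 3.20 ± 0.22, adjusted p 4.03e-08 by limma), followed by Reg3g with 4.65-fold (log2 2.22 ± 0.43) and Reg1 with 2.76-fold (log2 1.46 ± 0.38, adjusted p 0.00571 by limma). Reg3b was 2.40-fold higher (log2 1.26 ± 0.45, adjusted p 0.0345 by limma), and that call was lost without any 1 Villus array (adjusted p 0.068, 0.0793 and 0.079 without Villus 1, 2 and 3) and without GFP_Low 1 (0.0951) or GFP_Low 3 (0.113). The second probe set of Reg3b had a log2 difference of 2.11 ± 0.60 (adjusted p 0.0115 by limma).

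The largest differences in this comparison were decreases. Defa21 was at least 313-fold lower in Villus than in GFP_Low, with a fitted log2 of -8.61 ± 0.26 (adjusted p 3.44e-11 by limma). Mmp7 was 66.2-fold lower (log2 -6.05 ± 0.25) and Itln1 18.5-fold lower (log2 -4.21 ± 0.30). Reg4 was 3.06-fold lower (log2 -1.61 ± 0.19, adjusted p 7.91e-06 by limma), the only Reg member to fall. Without Villus 2 the log2 differences were -8.75 for Defa21, -6.15 for Mmp7, -4.13 for Itln1 and -1.61 for Reg4, and 3.23 for Reg3a, 2.01 for Reg3g and 1.46 for Reg1, all 7 still called.

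Set against the stem cells, Villus epithelium had 5 members called higher (22.6% of all genes were) and 4 called lower (26.3% of all genes were), with these arrays shared with the comparisons above. Reg3a was at least 61.0-fold higher, Reg1 44.7-fold, Reg3g 19.4-fold, Reg3b 7.28-fold and Reg4 6.14-fold (adjusted p 4.07e-05 or below by limma). Defa21 was at least 38.2-fold lower, Mmp7 6.72-fold lower (log2 -2.75 ± 0.23, adjusted p 1.53e-07 by limma) and Itln1 3.42-fold lower (log2 -1.77 ± 0.28, adjusted p 9.91e-05 by limma). The fourth lower call was Defa3, at background in both groups (adjusted p 0.0344 by limma), and it was lost without Villus 2 (0.105), Villus 3 (0.0949), GFP_High 1 (0.0861) or GFP_High 3 (0.0977). The other 8 calls held without Villus 2.

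**Figure D3:**
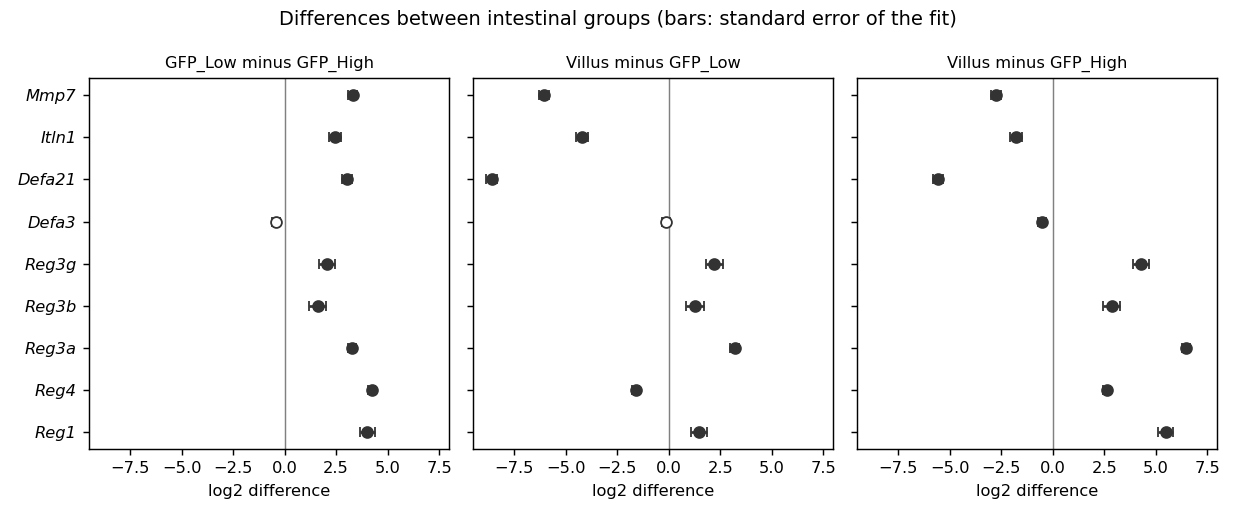
Log2 difference of each member in the 3 comparisons of intestinal groups, with the SE of the limma fit as bars and filled points for an adjusted p under 0.05. All members but Defa3 lie right of 0 in GFP_Low minus GFP_High, while Villus minus GFP_Low puts Defa21 (-8.61), Mmp7, Itln1 and Reg4 left of 0 and Reg3g, Reg3b, Reg3a and Reg1 right of it.

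In hair bulge cells, the outgroup, no member had a mean above the receptor level. Their values ranged between 3.2 (Defa3) and 7.7 (Reg3g), and a single value, that of Reg3g on hair bulge 3, exceeded 7.55. Hair bulge had 8 members called lower than GFP_High (29.1% of all genes were) and 0 called higher (0 at an unadjusted p under 0.05), against 19.4% of all genes. Reg3b was at least 132-fold and Itln1 at least 129.7-fold lower, whereas Reg4 (at least 11.7-fold) and Mmp7 (at least 13.5-fold) had less signal to lose in GFP_High. The eighth call was Defa3 and the member not called was Reg3a (adjusted p 0.316 by limma), both without signal in either group. The keratinocyte markers were present in these samples, with a summed intensity of 20119 to 24733 on the hair bulge arrays against 967.5 to 1077 on the GFP_High arrays.

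Across the 10 intestinal arrays the members fell into blocks of like course. Pearson correlations of log2 values were 0.931 to 0.970 among Mmp7, Itln1 and Defa21, and 0.891 to 0.955 among Reg1, Reg3a, Reg3g and Reg3b. Between these blocks they were -0.617 to -0.164. Reg4 stood between them, with 0.619 to 0.822 against the other Reg genes and 0.172 to 0.413 against the Paneth genes. These values describe 10 arrays in 3 groups, largely the differences between the groups, and carry no test. Within GFP_High cells Reg3g and Reg3b were both above their group mean on arrays 1 and 2 and below it on arrays 3 and 4, while Reg1 was lowest on array 1, which had the highest Reg3g.

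**Figure D4:**
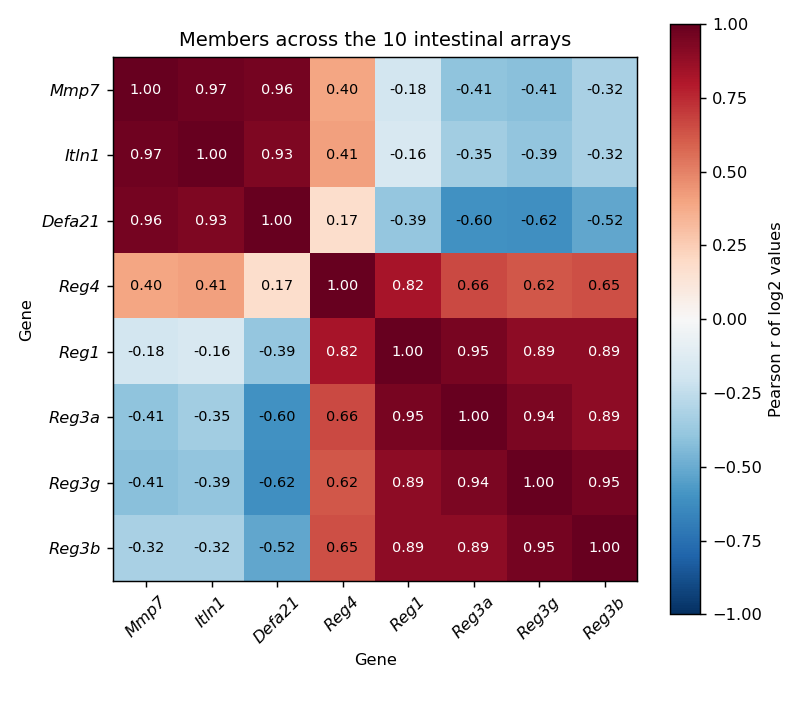
Pearson correlation of log2 values over the 10 intestinal arrays for the 8 members with signal. The Paneth genes (0.93 to 0.97) and the Reg members of the chromosome 6 cluster (0.89 to 0.95) form blocks of high correlation, with Reg4 between them.

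Among 5599 genes with signal in the intestine whose group means differ by at least 1 on the log2 scale, those most like each member were found by the same correlation. Mmp7 was most like Gpx1 (0.975), a glutathione peroxidase, Itln1 (0.970) and Fkbp11, and Itln1 was most like Mmp7, Fxyd3 and Asph (0.961 to 0.970). Defa21 was most like Mid1ip1, the keratin gene Krt19 and Wars (0.987 to 0.989). Reg4 was most like the enteroendocrine genes Ghrl (0.995) and Chgb (0.993), a hormone and a granin, and Selenos (0.992), a gene of the endoplasmic reticulum. Ghrl averaged 6.55 in GFP_High, 284 in GFP_Low and 75.8 in Villus, and Selenos averaged 297, 830.2 and 526. Reg1 was most like Enpep (0.993), an aminopeptidase of the brush border, Adh6a and Slc26a3, and Reg3a was most like Sec24d (0.998), Clic5 and Bco2. Reg3g was most like Tmem54, Misp and Gsn (0.976 to 0.979), and Reg3b was most like Reg3g (0.955), the tight junction gene Cldn4 and Misp. Defa3, without signal, was left out.

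Other Paneth granule and antimicrobial genes were taken from a list of 41, of which 17 were measured. In GFP_Low 7 were called higher than in GFP_High and 0 lower (limma, with 2 lower at an unadjusted p under 0.05). Of all genes 6.32% were called higher and 10.4% lower. The median log2 difference of the 17 was 0.07, against -0.04 for all genes. Ccl6, a chemokine, was 17.5-fold higher (1939 ± 364 in GFP_Low and 110.9 ± 20.8 in GFP_High, SD), Clps, a colipase, 9.81-fold and Spink4, a protease inhibitor that goblet cells also make, 8.82-fold. In Villus against GFP_Low 8 of the 17 were called lower and 2 higher (21.3% and 20.8% of all genes were). The median log2 difference was -0.80, against 0.02 for all genes. The lower ones included Lyz2 (34.1-fold), the pentraxin Mptx1 (at least 23.7-fold) and Spink4 (7.70-fold), and the higher ones were Slc30a2, a zinc transporter (7.17-fold), and Pigr, the receptor that carries antibodies into the lumen (1.62-fold). Without Villus 2 the counts were again 8 lower and 2 higher, with a median of -0.71.

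Lysozyme and some further defensin probe sets gave differing values. Lyz1, the lysozyme gene of Paneth cells, was 51.6, 12.3 and 14.7 in GFP_Low against 13.3, 15.0, 16.5 and 24.6 in GFP_High and was not called (adjusted p 0.683 by limma). Lyz2, the near copy that macrophages use, was 7588.9, 8489.1 and 12665.0 in GFP_Low against 4346.2, 2137.5, 4502.8 and 4452.4 in GFP_High (adjusted p 0.0115 by limma). Defa39, chosen after its values were seen, was 7585.2, 6143.2 and 10838.0 in GFP_Low against 3633.6, 1109.4, 3631.0 and 3413.6 in GFP_High. Probe sequences were not examined, and signal at the Lyz2 and Defa39 probe sets may include that of near-identical genes, which was not tested. Defa31, another alpha-defensin, had group means below the receptor level in every group.

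The factors that direct Paneth and other secretory cells were measured for 15 of 15 listed genes. In GFP_Low 8 were called higher and 1 lower than in GFP_High (6.32% and 10.4% of all genes were). The median log2 difference was 0.81, against -0.04 for all genes. Spdef, a factor of goblet and Paneth cells, was 11.1-fold higher (156.5 ± 7.1 in GFP_Low and 14.8 ± 5.4 in GFP_High, SD), Ern2, a sensor of the secretory pathway, 11.1-fold and Atoh1, the master factor of the secretory lineage, 4.70-fold. Gfi1, which acts below Atoh1, was at least 1.91-fold higher, and Xbp1, a factor of the unfolded protein response, 1.75-fold. Sox9, which Paneth cells need, was the gene called lower, 3.07-fold. In Villus against GFP_Low 11 of the 15 were called lower and 1 higher (21.3% and 20.8% of all genes were). The median log2 difference was -1.31, against 0.02 for all genes. Sox9 was 9.30-fold, Bhlha15 6.47-fold and Ern2 5.18-fold lower, and Tcf7l2, the Wnt pathway factor also called Tcf4, 2.40-fold higher. Without Villus 2 the counts were the same, 11 lower and 1 higher.

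Signals that Paneth cells offer to stem cells, listed together with the receptor gene Tgfbr1, were measured for 9 of 10 listed genes. Of these 3 were called higher and 1 lower in GFP_Low than in GFP_High (6.32% and 10.4% of all genes were). The median log2 difference was 0.07, against -0.04 for all genes. The gene called lower was the receptor Tgfbr1 (1.75-fold). The Notch ligands Dll1 and Dll4 were 1.66-fold and 1.61-fold higher, and Egf was at least 1.10-fold higher with a mean of 8.53 in GFP_Low, close to the receptor level. Wnt3, the Wnt ligand of Paneth cells, had means of 3.73 in GFP_Low and 3.60 in GFP_High, both below that level. In Villus against GFP_Low 2 were called higher and 2 lower, shares near the 20.8% and 21.3% of all genes, with a median of 0.04 against 0.02. Without Villus 2 the counts were 2 higher and 1 lower, Tgfbr1 no longer being called (adjusted p 0.0886 by limma). Tgfa was 1.95-fold higher with and without that array.

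Receptors and signals that lie above the Reg3 genes in other studies of the gut were measured for 17 of 20 listed genes. In GFP_Low 4 were called higher and 2 lower than in GFP_High (6.32% and 10.4% of all genes were). The median log2 difference was 0.20, against -0.04 for all genes. Il18, a cytokine of the epithelium, was 7.30-fold higher, and Stat3, which carries the IL-22 signal, 1.65-fold with overlapping arrays. The 2 genes called lower were Tlr2 (1.89-fold) and Il6st (1.52-fold). In Villus against GFP_Low 8 of the 17 were called higher and 0 lower (limma, 0 also at an unadjusted p under 0.05). Of all genes 20.8% were called higher and 21.3% lower. The median was 0.47, against 0.02 for all genes. Without Villus 2 the counts were the same, 8 and 0. Il33 was 14.7-fold higher, Stat3 4.16-fold (400 ± 27.1 in Villus and 99.2 ± 29.7 in GFP_Low, SD) and Il10rb, a subunit of the IL-22 receptor, 3.35-fold. Il22ra1, also part of that receptor, had no probe set of its own. Myd88, the adaptor of Toll-like receptors, was 109.7 ± 7.2 in Villus and 106.9 ± 12.1 in GFP_Low (SD, adjusted p 0.876 by limma). In hair bulge 9 of the 17 were called higher and 2 lower than in GFP_High (19.4% and 29.1% of all genes were). The median was 0.79, against -0.06 for all genes. Their summed intensity was 2396 to 3190 in hair bulge, 779.7 to 932.9 in GFP_High and 3263 to 3677 in Villus. No Reg3 member had a mean above the receptor level in hair bulge. A link of these genes to the Reg3 values was not tested.

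Of the other Reg relatives, Reg2 and Reg3d of the same cluster were at background in both crypt groups. Reg3d was 9.9, 25.1 and 16.2 in Villus and was at least 2.11-fold higher than in GFP_Low (adjusted p 0.00294 by limma), and at least 1.68-fold higher without Villus 2 (adjusted p 0.0122 by limma). Reg2 was 5.6, 582.1 and 7.3 in Villus, so only Villus 2, the array with pancreatic transcripts, had signal, and the difference was not called (adjusted p 0.189 by limma). Reg1 and the Reg3 members lacked this pattern, since Villus 2 was within the range of the other Villus arrays for Reg1 (6710.9, against 5999.0 and 7317.2) and Reg3a, and above it for Reg3g (5471.5, against 3987.8 and 3204.4) and, slightly, for Reg3b. Of the 6 measured genes listed with the Reg relatives, 1 was called higher and 1, Extl3, lower in GFP_Low than in GFP_High. Of all genes 6.32% and 10.4% were. The median log2 difference was 0.29, against -0.04 for all genes. In Villus against GFP_Low 4 were called higher and 1, again Extl3, lower (20.8% and 21.3% of all genes were), with a median of 1.61 against 0.02. The 4 include Clec7a, at background in both groups (6.13 in Villus and 4.40 in GFP_Low). Without Villus 2 the counts were the same and the median was 0.61. Clec2h, a C-type lectin gene, was 21.0-fold higher in the first of these comparisons and 12.6-fold higher in the second. Extl3, proposed as a receptor of Reg proteins, was 1.35-fold lower in GFP_Low than in GFP_High and 1.66-fold lower in Villus than in GFP_Low.

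**Figure D5:**
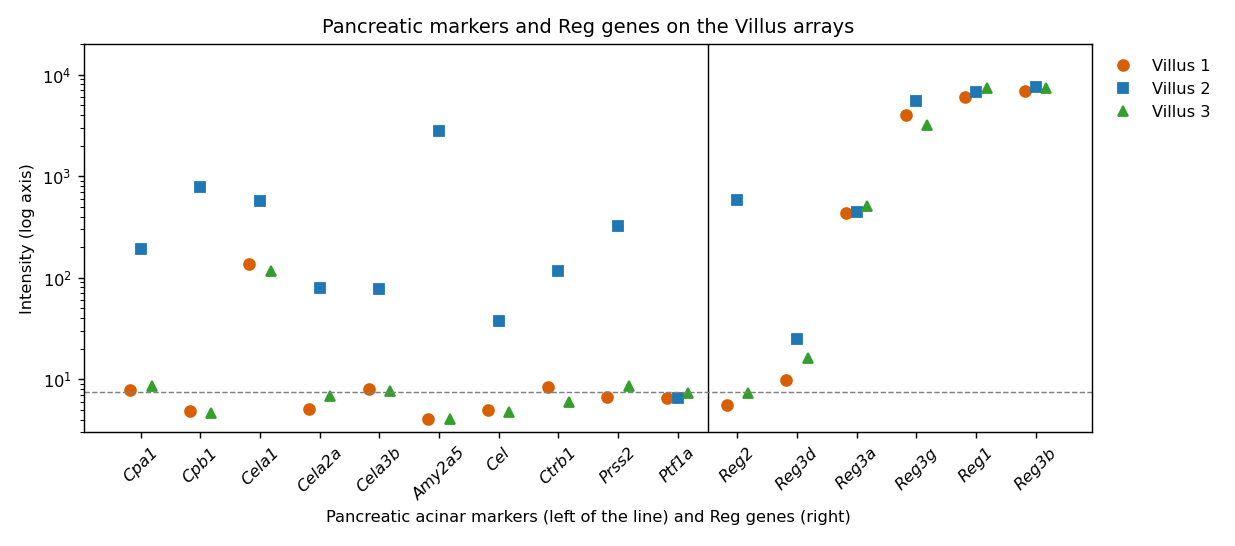
Intensity (log axis) of 10 pancreatic acinar markers and 6 Reg genes of the chromosome 6 cluster on the 3 Villus arrays, with the receptor level as a dashed line. Villus 2 is far above the others for 9 of the markers, all but Ptf1a, and for Reg2 (582.1, against 5.6 and 7.3), but not for Reg1, Reg3a, Reg3g or Reg3b.

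Marker sums of other cell types also differed between the groups, though single markers of a list did not always follow its sum. Calls of single markers below compare Villus with GFP_Low without Villus 2, unless another comparison is named. In that fit 19.3% of all genes were called higher and 19.5% lower. From GFP_High over GFP_Low to Villus, the summed intensity of 6 enterocyte markers was 1462 to 2548, 6793 to 10144 and 49101 to 50941, and it increased at each step like Reg1, Reg3a, Reg3g and Reg3b. That of 9 enteroendocrine markers was 191.7 to 366.8, 5396 to 6989 and 1908 to 2964, highest in GFP_Low like Reg4. Of the 9, 7 were called lower in Villus and 1, Sct, was called higher. The sum of 8 goblet markers was 3643 to 4929, 29276 to 33060 and 30137 to 30874, so that GFP_Low and Villus overlapped. Of the 8, 2 were called higher in Villus and 3 lower. The sum of 11 immune markers was higher in Villus, with 1724 to 2453 against 81.9 to 88.4 in GFP_Low. In Villus 9 of the 11 were above the receptor level, including Gzma and Cd3g. Of the 11, 7 were called higher in Villus and 1, Cd68, was called lower. In GFP_Low against GFP_High, with all arrays, 9 of 9 enteroendocrine, 7 of 8 goblet and 6 of 6 enterocyte markers were called higher. None of these was called lower. Of 5 tuft markers 2 were called higher, and of 11 immune markers 0. Of all genes 6.32% were called higher and 10.4% lower. The paper does not exclude contaminating cell populations in the fractions it analysed. The part that the cell types above have in the Reg and Paneth values was not tested.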

How the data were processed

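Per the labels and the study's methods, RNA of sorted crypt and hair bulge cells and of Villus epithelium (sorted by the methods, not by the labels) was hybridised to Affymetrix HT MG-430 PM arrays, 13 in all (4 GFP_High, 3 GFP_Low, 3 Villus and 3 hair bulge). The deposited values are intensities on a linear scale. The authors made them in Affymetrix Power Tools by RMA-sketch, with background correction, normalization across arrays and 1 value per probe set, and the sources used here give no version. Array medians were 7.8 to 8.7 and 75th percentiles 37.6 to 52.1, and log2 values of arrays of a group correlated at 0.978 to 0.994 across genes. No read depth exists for arrays, and their number limits the precision.

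Intensities were taken to log2 with no offset, and no further normalization was applied. Probe sets were named with the platform annotation (28898 of 45141 name 1 gene, 551 name several and 15692 are unnamed here). Each of 17097 genes was represented by its brightest probe set on average. Group differences were fitted with lmFit and eBayes of limma 3.58.1 (R 4.3.3) on 4 group means over all 13 arrays, with Benjamini-Hochberg adjustment over all genes. Folds are 2 to the power of the log2 difference. Where a group mean lay below the receptor level, that level took its place and the fold is given as "at least". No filter on low values was used. With a filter on the receptor level 8 of the 9 members remain. The fit was tested on simulated data. Figures were drawn with matplotlib 3.10.9.

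Same-numbered GFP_Low and GFP_High arrays share a code in the titles, taken to mark a sort. The residuals of the arrays of 1 sort correlated at 0.291, 0.451 and 0.320, and the sort was used as a block in an alternative fit. The other alternatives were an offset of 16, the filter, quantile normalization, the mean of all probe sets of a gene, fewer arrays in the fit, eBayes with trend and robust, each array left out, and, added after the values were seen, sort B left out and the gene lists without Villus 2. The members and the gene lists were chosen with earlier results of these data known. All 9 members are named, with some of the best known genes of the main lists, up to 3 called genes per list and direction, and the 3 genes most like each of the 8 members with signal. Defa39, Defa31, Clec7a and Tgfbr1 were named after their values were seen. Promoters are RefSeq sequences of GRCm38.p6.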

Additional observations from a re-analysis of the deposited data

Results flagged for a closer look

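Mmp7 in GFP_High cells was 121 on the GFP_High 1 array, against 96.8, 96.0 and 96.2 on the others. The gap to the nearest array was 0.968 of the whole range of the group, above the limit of Dixon's test for 4 values. The range itself was small beside the GFP_Low values of 720.2 to 1232.6, and without GFP_High 1 the gene was still called higher in GFP_Low. Such a test on many groups marks some by chance.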

How the results depend on the processing

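The 8 members with signal kept their direction under all alternatives of the 4 comparisons, and their calls apart from Reg3b. Reg3b in Villus against GFP_Low also lost its call with an offset of 16 (log2 1.26, adjusted p 0.0525 by limma) and with trend and robust settings (adjusted p 0.0589 by limma). Defa3, at background, changed sign in Villus against GFP_Low without GFP_Low 2 and without sort B (log2 0.051 in both, and -0.22 to 0.051 with 1 array left out at a time), and without sort B the count of members called lower in GFP_Low than in GFP_High was 1 in place of 0. Leaving out 1 array at a time, 1054 to 2048 genes were called lower in GFP_Low than in GFP_High, the fewest without GFP_Low 1, against 1773 with all arrays. The cause was not tested. With quantile normalization 1386 genes were called higher and 1404 lower, against 1080 and 1773. With the sort as a replicate block 1031 genes were called higher and 1522 lower, all 8 members kept their calls, with log2 1.29 (adjusted p 0.00469 by limma) for Reg3b, and the pairing changed no other call of a member.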
